A study of Mus musculus with 6 samples.

Results

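The unfolded protein response genes described here are 10 genes chosen by name: *Creb3l1*, *Creb3l2*, *Xbp1*, *Atf4*, *Atf6*, *Ddit3*, *Hspa5*, *Hsp90b1*, *Pdia4* and *Calr*. All 10 were among the 17854 genes deposited and among the 14289 genes that passed the expression filter. They were measured by bulk RNA sequencing in 3 libraries of MSC-derived Tomato+ cells and 3 libraries of endogenous Tomato+ cells. The name MSC-derived is that of the study, and blood cell markers were high in the MSC-derived libraries, as given below. The MSC-derived cells were sorted from repaired knee cartilage of male C57BL/6 mice with osteoarthritis after anterior cruciate ligament transection, whose joints had received mesenchymal stromal cells (MSCs) of the *Prrx1* lineage. The injected MSCs came from the inguinal white fat of mice carrying the alleles *Prrx1-Cre* and *R26-tdTomato*. The endogenous cells were Tomato+ cells of the articular cartilage of mice that carried the same alleles and matched in age and sex. In both groups the Tomato label marks every descendant of a cell that once expressed Cre from the *Prrx1* promoter, a promoter of limb mesenchyme, and does not by itself mark a chondrocyte. The groups also differed in joint surgery and in the origin of the cells (donor cells in a host joint against the animal's own cells), and these cannot be told apart from the origin of the cells in adipose tissue.

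The endoplasmic reticulum (ER) folds and modifies the proteins that a cell secretes. When unfolded proteins build up there, the sensors IRE1, PERK and ATF6 start the unfolded protein response: IRE1 splices the messenger RNA of *Xbp1*, PERK slows translation and thereby favours translation of *Atf4*, and ATF6 is cut in the Golgi apparatus to release a transcription factor. These factors raise the ER chaperones, and prolonged stress raises *Ddit3* (CHOP), a factor linked to cell death. Cartilage and bone cells carry a heavy load of secreted collagen, and the membrane-bound factors *Creb3l1* (OASIS) and *Creb3l2* (BBF2H7), which are cut in the same way as ATF6, are known for their part in collagen secretion in these tissues. Splicing of *Xbp1*, cleavage of the factors and translation were not measured here, so the values below are of total messenger RNA.

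The promoters of the 3 chaperone genes that hold an ER stress element, and that of *Creb3l2*, are shown because they carry the letters read by the factors in this group. Each run is the 250 bases before the start site in RefSeq on GRCm38.p6, 5′ to 3′ on the strand of the gene, with motif matches in capitals. The ER stress element is CCAAT, then any 9 bases, then CCACG, or the same read on the other strand, and the capitals of 6 letters are the CRE core TGACGT.
Hspa5 chr2:34771840-34772089 (plus strand): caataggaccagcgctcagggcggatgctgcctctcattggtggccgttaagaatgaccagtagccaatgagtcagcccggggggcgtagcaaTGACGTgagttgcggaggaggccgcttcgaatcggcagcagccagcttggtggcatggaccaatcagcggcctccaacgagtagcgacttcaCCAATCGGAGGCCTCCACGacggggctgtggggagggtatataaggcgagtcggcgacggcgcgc
Hsp90b1 chr10:86705445-86705694 (minus strand): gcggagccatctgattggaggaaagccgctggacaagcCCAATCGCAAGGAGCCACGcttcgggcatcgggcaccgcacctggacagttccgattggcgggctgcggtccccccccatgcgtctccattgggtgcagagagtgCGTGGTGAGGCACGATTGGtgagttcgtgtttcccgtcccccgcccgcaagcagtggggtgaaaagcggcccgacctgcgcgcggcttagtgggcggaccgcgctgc
Calr chr8:84846932-84847181 (minus strand): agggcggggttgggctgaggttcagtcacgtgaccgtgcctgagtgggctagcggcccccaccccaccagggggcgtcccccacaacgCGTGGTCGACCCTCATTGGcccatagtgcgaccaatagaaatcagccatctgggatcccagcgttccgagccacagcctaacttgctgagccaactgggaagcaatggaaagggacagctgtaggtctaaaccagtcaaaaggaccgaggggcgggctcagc
Creb3l2 chr6:37442149-37442398 (minus strand): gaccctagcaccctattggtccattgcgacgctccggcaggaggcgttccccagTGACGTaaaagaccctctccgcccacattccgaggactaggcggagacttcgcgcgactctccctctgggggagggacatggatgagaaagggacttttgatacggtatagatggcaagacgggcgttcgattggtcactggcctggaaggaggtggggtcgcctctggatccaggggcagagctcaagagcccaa

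The ER stress element lay in 3 of the 8 members for which a promoter was given, *Hspa5*, *Hsp90b1* and *Calr*, against 39 of all 32851 promoters, or 0.119%. The match in *Hspa5* began 65 bases before the start site. In *Calr* the match began 162 bases before the start site and read on the opposite strand. The promoter of *Hsp90b1* held 2 matches, 212 and 107 bases before the start, and was the 1 promoter of all 32851 with more than 1. The CRE core was found in *Hspa5* and *Creb3l2* and in 7.51% of all promoters. CCACG alone, the last 5 letters of the element, was found in 5 members, *Hspa5*, *Hsp90b1*, *Calr*, *Pdia4* and *Atf4*, and in 32.8% of all promoters, so that its presence in *Pdia4* and *Atf4* is common. The ER stress element II (ATTGG, any base, CCACG), the UPR element TGACGTGG, which holds the CRE core, and the amino acid response element TGATGNAAT were in 0 of the 8, against 0.0365%, 0.676% and 0.965% of all promoters. These matches are letters in a window of 300 bases on either strand and are not measured binding sites. *Creb3l1* and *Atf6* were not matched to a promoter.

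The expected counts summed to between 22060628 and 24881796 per library, and the detection floor, set at 3 counts, was 0.121 to 0.136 CPM (counts scaled to equal library totals), for counting error only. All members lay far above that floor. Endogenous replicate 1 stood apart, with a chi-square statistic per gene of 57.5 and 54.3 against the other two endogenous libraries, which differed from each other by 5.40, and with 3449 genes at 0 against 1323 and 1375. For *Ddit3*, *Hspa5*, *Hsp90b1* and *Calr* the log2 fold changes without it are given below. Libraries of a group are described as separate mice, and p-values measure the spread between them. *Prrx1* itself stood at 3.74 ± 0.235 FPKM in the MSC-derived against 15.3 ± 3.54 FPKM in the endogenous libraries (SD, n = 3).

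Of the 10 genes, 8 were lower in the MSC-derived cells than in the endogenous cells, 0 were higher, and *Atf6* and *Ddit3* did not pass the test (edgeR's quasi-likelihood test, adjusted p of 0.05 or less over all genes tested). The same test called 31.3% of all genes tested higher and 30.3% lower in the MSC-derived cells. At an unadjusted p under 0.05 the count of higher members was also 0, and DESeq2 called 0 of them higher as well. The median log2 fold change of the 10 genes was -0.61, and that of all genes tested was 0.05, where a positive value means higher in the MSC-derived cells. Once CPM was adjusted by TMM factors (edgeR's scaling of library totals), 8 of the 10 genes separated every MSC-derived library from every endogenous one. Of all genes tested, 72.4% did so. In CPM, the separation of *Calr* depended on that adjustment, as given below. These totals describe a list chosen by name.

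**Figure D1:**
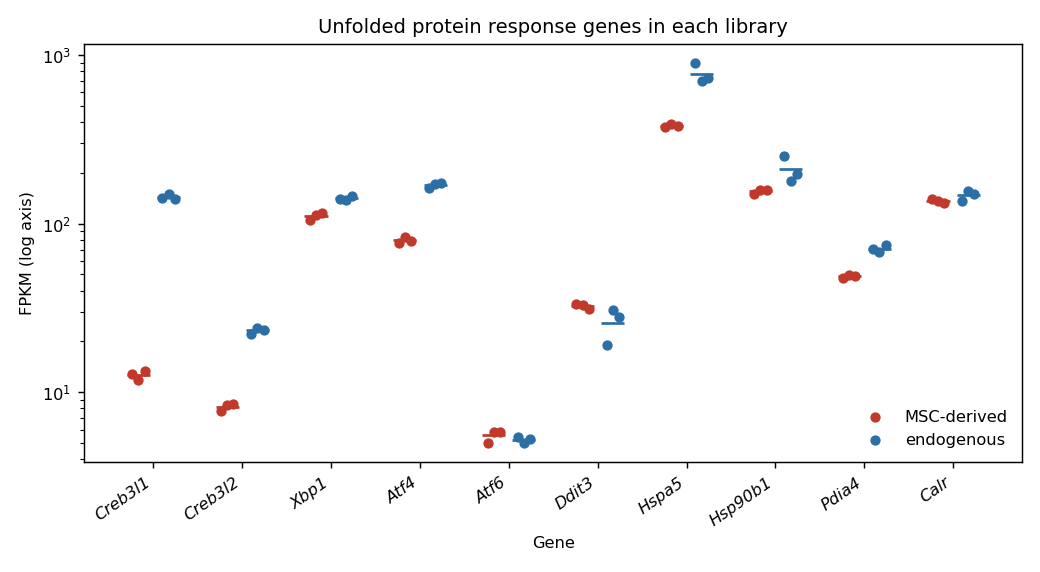
The plot shows FPKM (log axis) of each of the 10 genes in each library, with MSC-derived libraries in red, endogenous libraries in blue and a bar at the mean of 3 libraries. *Creb3l1* has the widest gap between the groups, 12.6 against 143.8 FPKM, and *Atf6* has nearly none.

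The membrane-bound factor genes *Creb3l1* and *Creb3l2* had the largest differences of the 10. *Creb3l1* (NCBI gene 26427), whose product acts in osteoblasts on collagen genes, had 12.83, 11.76 and 13.34 FPKM (fragments scaled by transcript length and library total) in the MSC-derived libraries and 141.78, 148.86 and 140.68 FPKM in the endogenous libraries. Every endogenous library was thus far above every MSC-derived one. The endogenous level of *Creb3l1* was 12.4-fold higher (log2 fold change -3.63, SE 0.09, adjusted p = 9.13e-08), resting on counts of 573 to 656 per MSC-derived and 6971 to 7384 per endogenous library. Ordered by FPKM within each library, *Creb3l1* held a mean rank of 5129 among the genes tested in the MSC-derived libraries and of 528 in the endogenous libraries, counted from the highest gene. *Creb3l2* (gene 208647), whose product raises the ER export machinery in chondrocytes, had 7.72, 8.36 and 8.48 FPKM against 22.09, 24.05 and 23.52 FPKM. These libraries did not overlap either, and *Creb3l2* was 3.08-fold higher in the endogenous cells (log2 fold change -1.62, SE 0.09, adjusted p = 4.50e-06).

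*Atf4* and *Xbp1*, the factors of the PERK and IRE1 arms, were also lower in the MSC-derived cells, *Atf4* by the larger amount. *Atf4* (gene 11911) had 77.09, 82.69 and 78.57 FPKM in the MSC-derived libraries and 161.55, 172.15 and 173.89 FPKM in the endogenous libraries. The highest MSC-derived library lay below the lowest endogenous one, and *Atf4* was 2.34-fold higher in the endogenous cells (log2 fold change -1.22, SE 0.07, adjusted p = 4.52e-06). *Xbp1* (gene 22433) had 105.55, 112.12 and 114.66 FPKM against 138.91, 137.22 and 146.38 FPKM. The gap for *Xbp1* was small but free of overlap, 1.38-fold (log2 fold change -0.47, SE 0.07, adjusted p = 0.000677). Of all genes tested, 34.0% had a lower log2 fold change than *Xbp1*.

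*Atf6* and *Ddit3* did not differ beyond the spread between libraries by the main test. *Atf6* (gene 226641), the sensor that is itself a transcription factor, had the lowest level of the 10 in both groups, 5.02, 5.80 and 5.78 FPKM in the MSC-derived libraries and 5.42, 4.97 and 5.28 FPKM in the endogenous libraries. The libraries were intermixed, with a log2 fold change of -0.04 (SE 0.10, adjusted p = 0.752). *Ddit3* (gene 13198) had 33.47, 32.99 and 30.97 FPKM against 18.92, 30.61 and 27.97 FPKM. Endogenous replicate 1 was the low library of *Ddit3*. The log2 fold change of *Ddit3* was 0.20 (SE 0.17, adjusted p = 0.341), and without endogenous replicate 1 it was -0.00971 (adjusted p = 0.937).

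All 4 ER chaperone genes were lower in the MSC-derived cells, *Hspa5* the most and *Calr* the least. *Hspa5* (gene 14828) encodes BiP, the main ER chaperone and the protein that holds the sensors inactive, and was the most abundant of the 10 genes in both groups. It had 374.26, 387.16 and 378.42 FPKM in the MSC-derived libraries and 894.91, 696.99 and 731.07 FPKM in the endogenous libraries. The MSC-derived libraries of *Hspa5* were tightly grouped and all lay below the endogenous ones, of which replicate 1 was the highest. *Hspa5* was 2.22-fold higher in the endogenous cells (log2 fold change -1.15, SE 0.10, adjusted p = 2.98e-05), and its log2 fold change without endogenous replicate 1 was -1.10. It was the only member with expected counts that were not whole numbers, as RSEM gives where reads fit more than 1 place.

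*Hsp90b1* (gene 22027), the ER member of the Hsp90 family, had 149.99, 157.32 and 158.84 FPKM in the MSC-derived libraries and 253.00, 179.67 and 195.78 FPKM in the endogenous libraries. Endogenous replicate 1 was again the highest, and the groups did not overlap. *Hsp90b1* was 1.46-fold higher in the endogenous cells (log2 fold change -0.55, SE 0.12, adjusted p = 0.00603), with a log2 fold change of -0.45 without endogenous replicate 1. *Pdia4* (gene 12304), a protein disulfide isomerase, had 47.35, 49.55 and 49.15 FPKM against 70.66, 67.40 and 75.05 FPKM. The groups did not overlap for *Pdia4*, which was 1.58-fold higher in the endogenous cells (log2 fold change -0.66, SE 0.07, adjusted p = 0.000149). *Calr* (gene 12317), the lectin chaperone calreticulin, had 140.06, 135.51 and 131.82 FPKM against 135.25, 154.99 and 149.90 FPKM. For *Calr* endogenous replicate 1 lay within the MSC-derived range in FPKM. The groups did not overlap only once CPM was adjusted by TMM factors or on TPM. The log2 fold change of *Calr* was -0.23 (SE 0.08, adjusted p = 0.0320), and leaving out any single library lost this call, except endogenous replicate 1 (adjusted p between 0.0801 and 0.130). Without endogenous replicate 1 the log2 fold change of *Calr* was -0.34 (adjusted p = 1.08e-06). The fit without that library called 11249 genes in all, against 8801 with every library, so a small adjusted p there is not particular to *Calr*.

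Within each group the levels per length fell in a similar order at the top and the bottom, and *Creb3l1* changed its place. In the MSC-derived cells the order of mean FPKM was *Hspa5*, *Hsp90b1*, *Calr*, *Xbp1*, *Atf4*, *Pdia4*, *Ddit3*, *Creb3l1*, *Creb3l2* and *Atf6*, and no neighbours overlapped between libraries. In the endogenous cells it was *Hspa5*, *Hsp90b1*, *Atf4*, *Calr*, *Creb3l1*, *Xbp1*, *Pdia4*, *Ddit3*, *Creb3l2* and *Atf6*. There the levels of *Calr*, *Creb3l1* and *Xbp1* overlapped between neighbours, as did those of *Ddit3* and *Creb3l2*. The spread over libraries, as the coefficient of variation of FPKM, ran from 1.73% to 8.04% among the 10 genes in the MSC-derived cells. In the endogenous cells it ran from 3.09% for *Creb3l1* to 23.7% for *Ddit3*, with 13.7% for *Hspa5* and 18.4% for *Hsp90b1*.

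The 2 pairs of factor genes were compared within each library, since a ratio of this kind does not depend on how libraries are scaled. The level of *Creb3l1* was 12.2%, 10.5% and 11.6% of that of *Xbp1* in the MSC-derived libraries and 102.1%, 108.5% and 96.1% in the endogenous libraries. *Creb3l1* was thus far below *Xbp1* in every MSC-derived library and level with it in every endogenous one, a difference of -3.16 in the mean log2 ratio or 8.95-fold (exact two-sided permutation test, p = 0.1, the smallest that 3 against 3 libraries can give, and 0.1 after adjustment over the 2 ratios). The level of *Ddit3* was 43.4%, 39.9% and 39.4% of that of *Atf4* in the MSC-derived libraries and 11.7%, 17.8% and 16.1% in the endogenous libraries. The ratio of *Ddit3* to *Atf4* was 2.73-fold higher in the MSC-derived cells, with no overlap, a difference in the mean log2 ratio of 1.45 (exact two-sided permutation test, p = 0.1, adjusted p = 0.1).

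**Figure D2:**
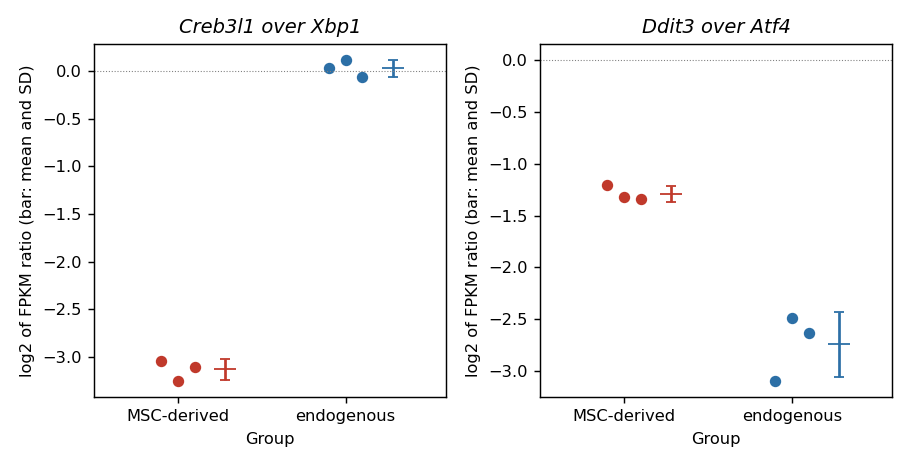
The plot shows the log2 ratio of FPKM of *Creb3l1* to *Xbp1* (left) and of *Ddit3* to *Atf4* (right) in each library, with the mean and SD of 3 libraries beside the points and a dotted line at equal levels. The endogenous libraries sit at the line for *Creb3l1* to *Xbp1* (mean 0.03) while the MSC-derived ones sit at -3.13, and for *Ddit3* to *Atf4* the MSC-derived libraries (mean -1.29) lie above the endogenous ones (mean -2.74).

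Summed, *Hspa5*, *Hsp90b1*, *Pdia4* and *Calr* held 0.0880%, 0.0902% and 0.0883% of all transcripts (percent of TPM, transcript levels scaled to the same total in every library) in the MSC-derived libraries and 0.268%, 0.192% and 0.201% in the endogenous libraries. Of all expected counts these genes held 0.163% to 0.168% in the MSC-derived and 0.256% to 0.320% in the endogenous libraries, a smaller relative gap. The composition of the 4 genes differed as well as their sum. *Hspa5* made up 52.6% to 53.1% of the summed FPKM of the 4 genes in the MSC-derived libraries and 63.4% to 66.1% in the endogenous libraries. For each transcript of *Hspa5*, transcripts of *Calr* came to 34.8% to 37.4% in the MSC-derived libraries and 15.1% to 22.2% in the endogenous libraries. The same ratio was 40.1% to 42.0% against 25.8% to 28.3% for *Hsp90b1* and 12.65% to 12.99% against 7.90% to 10.3% for *Pdia4*. These shares were not tested.

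How far a gene is called lower depends on the scale. FPKM summed to 808701 to 813572 in the MSC-derived libraries but to 504768 to 573603 in the endogenous libraries, which bears on FPKM against TPM only. On log2(TPM + 1), which sets the totals equal, the median of all genes tested moved by -0.33 to -0.28, and limma called 3085 genes higher and 5892 lower, against 4468 and 4333 by edgeR on counts. On that scale *Calr* had a log2 fold change of -0.67 (adjusted p = 0.000770) and *Xbp1* -0.90 (adjusted p = 0.000308), and *Atf6* was called lower, at -0.43 (adjusted p = 0.0186). Relative to the median of all genes on the TPM scale, *Atf6* stood at -0.15, *Ddit3* at 0.08 and *Calr* at -0.39. Scaled by library size alone or on log2(FPKM + 1), *Calr* was not called, at -0.12 (adjusted p = 0.211) and -0.11 (adjusted p = 0.338), and *Atf6* changed sign, to 0.0749 and 0.0685. Library size alone moved the median of all genes by 0.12 and log2(FPKM + 0.1) by 0.15. *Creb3l1*, *Creb3l2*, *Xbp1*, *Atf4*, *Hspa5* and *Pdia4* were called lower under all 17 alternative fits tried, and *Hsp90b1* under 16. The log2 fold change of *Creb3l1* ranged from -3.99 to -3.41 over them.

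**Figure D3:**
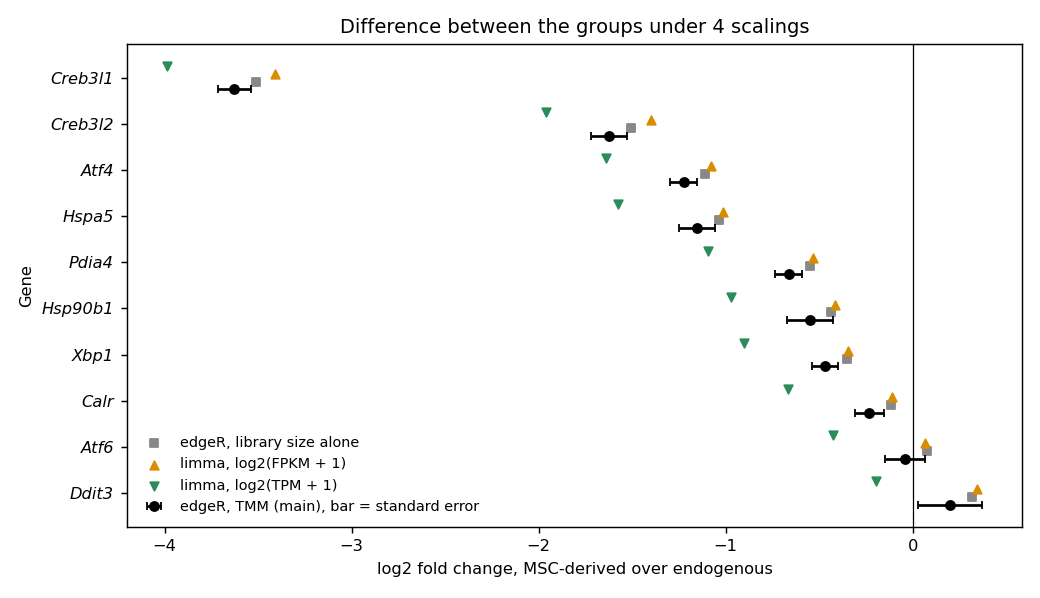
The plot shows the log2 fold change of each gene, MSC-derived over endogenous, by edgeR with TMM scaling (black, bar of 1 standard error), by edgeR with library size alone (grey), by limma on log2(FPKM + 1) (orange) and by limma on log2(TPM + 1) (green). The genes keep nearly the same order on each scale while the whole set shifts, and *Atf6* and *Ddit3* lie on both sides of 0.

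The rest of the pathway was described by 6 lists of other genes, 121 in all, of which 120 were tested. Of these, 21 were higher in the MSC-derived cells, 66 were lower and 33 did not pass the test, with a median log2 fold change of -0.53. Each list is read against the 31.3% of all genes called higher and the 30.3% called lower.

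Among the sensors and the proteases that release the membrane-bound factors, 1 of 8 genes tested was higher (*Atf6b*), 3 were lower (*Ern1*, *Eif2ak3* and *Mbtps1*) and 4 were not called. *Ern2* was not tested, with 2 counts in MSC-derived replicate 1 and 0 in all others. *Mbtps1*, the Golgi protease that makes the first cut in ATF6 and its relatives, had 11.4 ± 0.868 against 31.2 ± 2.92 FPKM (SD, n = 3, log2 fold change -1.57, adjusted p = 8.40e-06). *Eif2ak3*, which encodes PERK, had a log2 fold change of -0.91 (adjusted p = 0.000274), on 4.97 ± 0.0819 against 8.12 ± 0.574 FPKM (SD, n = 3). *Ern1*, which encodes IRE1, had 1.43, 1.44 and 1.31 FPKM against 2.91, 2.0 and 1.61 FPKM, a log2 fold change of -0.72 (adjusted p = 0.0368). *Atf6b*, the paralog of *Atf6*, had 34.94, 35.92 and 36.33 FPKM against 11.59, 22.18 and 22.30 FPKM, a log2 fold change of 0.81 (adjusted p = 0.0198). *Atf6b* was thus the more abundant of the 2 *Atf6* genes in FPKM in every library. Endogenous replicate 1 was the low endogenous library of *Atf6b* and the high one of *Ern1*. When each library was left out, the log2 fold change of *Atf6b* ran from 0.51 to 0.96 and that of *Ern1* from -0.90 to -0.49. The calls of *Ern1* and *Atf6b* were lost when any MSC-derived library was left out (adjusted p between 0.0941 and 0.115 for *Ern1* and between 0.0538 and 0.0605 for *Atf6b*), and that of *Atf6b* was also lost on log2(TPM + 1).

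Among 24 genes of the integrated stress response, the program that ATF4 and PERK share with amino acid and other stresses, 6 were higher, 14 were lower and 4 were not called, with a median of -0.66. *Slc7a11*, the cystine transporter, rose the most, from 1.49 ± 0.593 FPKM in the endogenous cells to 9.86 ± 0.451 FPKM in the MSC-derived cells (SD, n = 3, log2 fold change 2.61, adjusted p = 8.46e-05). *Stc2*, a secreted glycoprotein, fell the most, at 18.4 ± 1.505 FPKM endogenous and 0.403 ± 0.364 FPKM MSC-derived (SD, n = 3, log2 fold change -5.65, adjusted p = 4.41e-05). Known targets of ATF4 or CHOP stood on both sides, and those given here were chosen after their values were seen. *Trib3* had a log2 fold change of -2.75 (adjusted p = 2.85e-05), *Chac1* -2.72 (adjusted p = 0.000975) and *Ppp1r15a*, which encodes GADD34, -1.07 (adjusted p = 6.11e-05). In the other direction, *Slc3a2*, the partner chain of the cystine transporter, had 0.76 (adjusted p = 1.86e-05) and the transcription factor gene *Cebpb* 0.80 (adjusted p = 0.000160).

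Among 26 other ER chaperones and foldases, 5 were higher, 14 were lower and 7 were not called, with a median of -0.43. *Sdf2l1*, a partner of BiP, went against *Hspa5*, with 125.6 ± 7.43 against 28.9 ± 4.09 FPKM (SD, n = 3, log2 fold change 1.999, adjusted p = 6.57e-06). The other 4 that were higher were *Ero1a* (0.71) and *Ero1b* (1.21), the oxidases that recharge disulfide isomerases, *Fkbp2* (0.99) and *Erp29* (0.98), in log2 fold change. *Rcn3*, a calcium-binding protein of the ER known in collagen-making cells, fell the most, with 66.1 ± 2.76 against 553.3 ± 58.8 FPKM (SD, n = 3, log2 fold change -3.19, adjusted p = 2.53e-07). *P4hb*, a disulfide isomerase that is also a subunit of collagen prolyl hydroxylase and was chosen after its values were seen, had a log2 fold change of -1.39 (adjusted p = 1.67e-06). Of 21 genes of this list with a promoter, 5 held the ER stress element (*Canx*, *Pdia6*, *Dnajc3*, *Creld2* and *Ero1b*), and of these 1 was higher, 2 were lower and 2 were not called.

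ER-associated degradation, which returns misfolded proteins to the cytosol, had 3 of 17 genes higher, 6 lower and 8 not called. Its median of -0.02 was close to that of all genes tested, 0.05. The higher ones were *Edem2* (log2 fold change 1.33, adjusted p = 7.65e-06), *Edem1* (0.50, adjusted p = 0.0445) and *Derl2* (0.40, adjusted p = 0.0109). The call of *Edem1* was lost without any of 5 libraries, endogenous replicate 1 being the exception (adjusted p between 0.0742 and 0.141), and *Derl2* changed sign on log2(TPM + 1). *Selenos* had the largest fall, with 101.5 ± 1.33 against 202.6 ± 1.68 FPKM (SD, n = 3, log2 fold change -1.12, adjusted p = 4.26e-06).

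The entry and exit of the ER were mostly lower in the MSC-derived cells. Of 23 genes of the translocon, the signal peptidase and the oligosaccharyltransferase, 3 were higher, 16 were lower and 4 were not called, with a median of -0.61. *Ssr3*, a translocon-associated subunit, had a log2 fold change of -1.10 (adjusted p = 1.22e-05), the lowest of the list, while *Sec11c* (1.36), *Spcs2* (0.64) and *Sec61g* (0.53) were higher. The call of *Sec61g* was lost without any 1 of the MSC-derived libraries or without endogenous replicate 2 (adjusted p between 0.0541 and 0.0946), and with 2 other scalings. Of 22 genes of the COPII coat and cargo export, 3 were higher (*Preb* 0.77, *Mia2* 0.73 and *Mcfd2* 0.66 in log2 fold change), 13 were lower and 6 were not called, with a median of -0.54. *Serpinh1*, the collagen chaperone HSP47, fell the most, with 107.6 ± 1.08 FPKM against 1412 ± 192 FPKM (SD, n = 3, log2 fold change -3.84, adjusted p = 2.03e-07). The coat genes *Sec23a* and *Sec24d*, known targets of CREB3L1 and CREB3L2 and chosen after their values were seen, had log2 fold changes of -2.07 (adjusted p = 5.61e-06) and -1.95 (adjusted p = 1.27e-06).

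**Figure D4:**
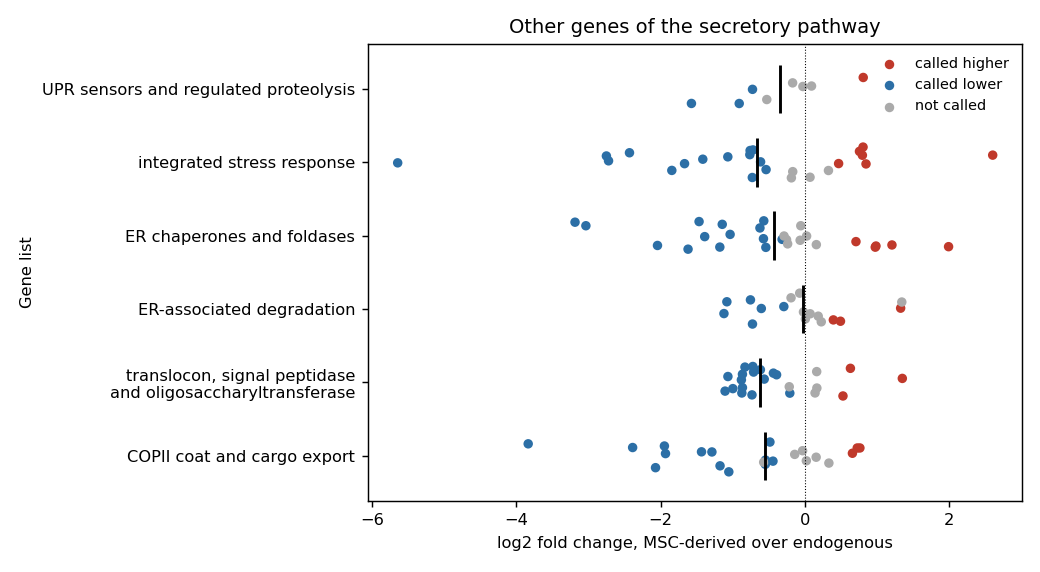
The plot shows the log2 fold change, MSC-derived over endogenous, of each tested gene of the 6 lists, in red where called higher, in blue where called lower and in grey where not called, with a black bar at the median of each list. The medians lie between -0.66 and -0.02, and every list holds genes on both sides of 0.

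Markers of other cell types moved with the groups. The summed level of 9 neutrophil markers was 121275 to 128907 FPKM in the MSC-derived libraries and 4197 to 6752 FPKM in the endogenous libraries, and all 9 were higher in the MSC-derived cells. The sums were 20690 to 21329 against 336.7 to 474.1 FPKM for 9 macrophage markers, 11504 to 11947 against 269.4 to 440.9 FPKM for 10 leukocyte markers and 24945 to 25783 against 3625 to 5652 FPKM for 7 erythroid markers, each marker being higher. Of 10 B and plasma cell markers tested, plasma cells being known for high *Xbp1*, 7 were higher and *Sdc1* was lower, with sums of 287.0 to 309.2 against 60.9 to 79.7 FPKM. Of 6 eosinophil, basophil and mast cell markers 5 were higher, with sums of 1274 to 1316 against 79.3 to 112.2 FPKM. The 10 chondrocyte markers were all lower, at 351.9 to 363.9 against 12537 to 13177 FPKM, and so were the 8 osteoblast markers, at 1094 to 1106 against 30409 to 42830 FPKM. None of these markers was at 0 in all libraries of a group. Both groups are labelled chondrocyte. *Col2a1*, the main cartilage collagen, had an endogenous level of 7112 ± 30.2 FPKM and an MSC-derived level of 97.9 ± 3.83 FPKM, and *Ptprc*, the pan-leukocyte gene CD45, had 3.84 ± 1.303 FPKM endogenous and 75.95 ± 2.39 FPKM MSC-derived (SD, n = 3). The markers of the MSC-derived libraries thus went against the chondrocyte label, and those of the endogenous libraries included bone markers beside cartilage markers. The name MSC-derived also follows the study, and how far these cells descend from the injected MSCs was not tested here. The MSC-derived libraries held high blood cell markers and less *Prrx1* RNA than the endogenous libraries. The part of these cell types in the differences of the 10 genes was not tested. In such bulk libraries, fewer cells of a type and less RNA of a gene per cell cannot be told apart.

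**Figure D5:**
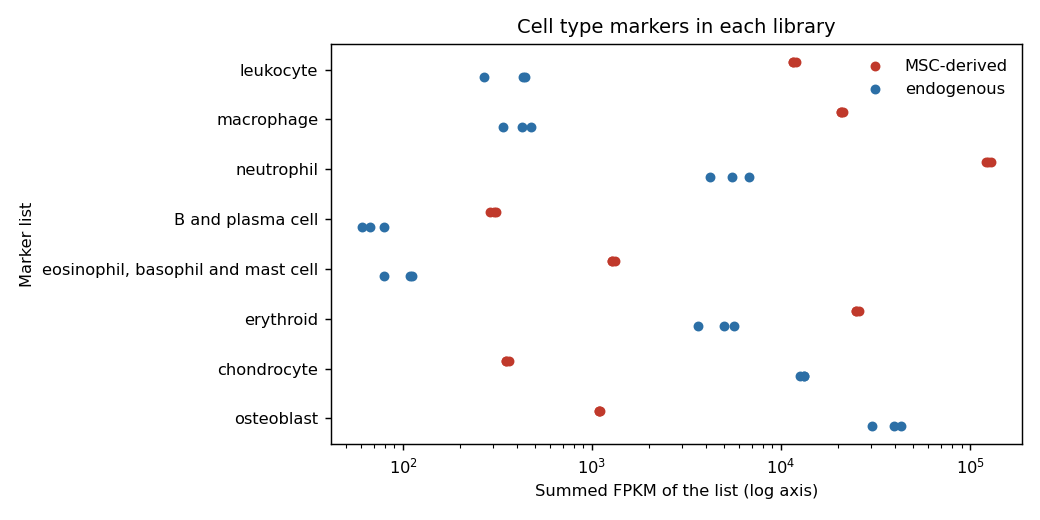
The plot shows the summed FPKM (log axis) of each marker list in each library, with MSC-derived libraries in red and endogenous libraries in blue. Every list separates the groups without overlap, chondrocyte and osteoblast markers with the endogenous libraries on the right and the 6 blood cell lists with the MSC-derived libraries on the right.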

How the data were processed

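Total RNA of sorted Tomato+ cells was sequenced in 3 MSC-derived and 3 endogenous libraries. The labels' processing notes name Bowtie2 2.2.5, RSEM 1.2.12 and the build mm9, while the study's methods give other versions of both tools. The strand setting is not given in the sources used here. The authors deposited RSEM's expected count per gene, FPKM, TPM and a further normalized signal per gene, which entered none of the results given here. Columns were matched to libraries by name (24 matched, 0 unmapped), and 8 columns of the authors' averages were not used. Groups and replicate numbers come from the titles. The 10 genes, the pathway lists and the marker lists were chosen with earlier results of these data known, so no p-value was adjusted over a list alone and no list was tested as a set.

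Expected counts were rounded, which changed 20.6% of values, and tested in R 4.3.3 with edgeR 4.0.16 (filterByExpr, TMM, glmQLFit, glmQLFTest, no block) on all 6 libraries, with Benjamini-Hochberg adjustment over 14289 genes and a threshold of 0.05. The standard error is the log2 fold change divided by the square root of F. Ratios were tested by exact permutation over libraries. The genes named are the 10 members, from each pathway list the largest and smallest log2 fold change among called genes with a mean log2 CPM of at least 3, and any called gene where a count was 5 or fewer, with exceptions stated in the text. Alternatives were DESeq2 1.42.0, 4 other scalings, 2 other filters, a stricter threshold, a replicate block, each library left out, and limma 3.58.1 on FPKM with a pseudocount of 1 or 0.1 before taking log2. Limma on log2(TPM + 1) was added after seeing the data. The script's test was checked on simulated data. Promoters are from RefSeq on GRCm38.p6 and were matched by symbol for 8 of the 10 genes. They were not joined to the mm9 build by coordinates.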

Additional observations from a re-analysis of the deposited data

How the results depend on the processing

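The count of the 10 genes called lower was 7 to 8, and that called higher 0, when each library was left out in turn, and 6 were lower with an adjusted p of 0.001 as the threshold. Over all genes, the fits without 1 library called 3672 to 5563 higher and 3761 to 5686 lower, against 4468 and 4333 with all libraries. The share of all genes called at 0.001 is not given here. Under the other settings the single calls that changed among the 10 were these. *Calr* lost its call with library size alone, without a filter on low counts (adjusted p = 0.0519), with the replicate block (adjusted p = 0.0908) and with limma on FPKM, *Hsp90b1* lost it on log2(FPKM + 0.1) (-0.42, adjusted p = 0.0558), and *Atf6* gained one on log2(TPM + 1). The log2 fold change of *Atf6* turned to 0.0749 with library size alone, 0.0795 on log2(FPKM + 0.1) and 0.0685 on log2(FPKM + 1), and ran from -0.11 to 0.0302, the latter without MSC-derived replicate 1, when each library was left out. That of *Ddit3* turned to -0.20 on log2(TPM + 1) and ran from -0.00971, without endogenous replicate 1, to 0.28 when each library was left out, and that of *Derl2* turned to -0.0429 on log2(TPM + 1). The cause of these changes was not tested. Both ratios and the summed chaperone share kept their direction when each library was left out in turn. Taking the ratios from CPM or the share from FPKM was no further check. A ratio within a library cancels library scaling, and the share of FPKM equals that of TPM by construction.

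With an adjusted p of 0.001 as the threshold the pathway counts fell, as a stricter threshold must make them: sensors 0 higher, chaperones 3 higher and 9 lower, degradation 1 higher and 2 lower, translocon 10 lower and COPII 8 lower. On log2(TPM + 1) the higher counts were 0 for sensors, 3 for chaperones, 1 for degradation, 1 for the translocon and 1 for COPII, and 11 degradation genes were lower. The higher calls of *Atf6b*, *Edem1*, *Ero1a*, *Ero1b*, *Mcfd2*, *Mia2*, *Sec61g* and *Spcs2* were lost on that scale, and the lower call of *Ern1* was lost with library size alone and on FPKM. With upper quartile normalization *Edem1* (adjusted p = 0.0616) and *Sec61g* (adjusted p = 0.0834) lost their calls, and *Sec61g* also did with TMM computed without the 50 genes with the most counts (adjusted p = 0.0566). On log2(FPKM + 1) degradation had 5 higher and COPII 5 higher, and COPII also had 5 higher on log2(FPKM + 0.1) and with library size alone. Leaving out each library in turn gave 0 to 2 sensors higher and 2 to 5 lower, the 5 without endogenous replicate 1, where 3 were lower with all libraries. The fit without endogenous replicate 1 also called more of all genes lower, 5686 against 4333.

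Same-numbered libraries came from different mice, and the deviations of same-numbered libraries from their group means had correlations of 0.0129, 0.00221 and 0.0178, so the numbers do not pair the libraries. With the replicate block 8023 genes were called in place of 8801. Apart from the call of *Calr*, the replicate block changed no call among the 10 genes, and among the other named genes it lost those of *Edem1* (adjusted p = 0.0513) and *Ern1* (adjusted p = 0.0590). Total counts were alike in all libraries, but endogenous replicate 1 had more genes at 0, as given above. Surgery, cell origin and the share of other cell types differ with the groups and cannot be told apart from them.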
